A study of Arabidopsis thaliana with 12 samples.

Results

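The probe sets described here are annotated to genes encoded in the mitochondrial genome of Arabidopsis thaliana. They were those that the platform annotation gives to exactly 1 gene whose symbol begins, in lower case, with nad, cox, cob, ccb, ccm or orf, without plastid locus tags. This gave 15 genes, of 13350 that were named alone on a probe set, and 22 probe sets, of 22746 that were not controls. All 15 gene symbols matched a gene of the mitochondrial chromosome in the RefSeq gene table, by symbol or synonym. Respiratory chain and cytochrome c maturation genes took 21 of the 22 probe sets. Open reading frames took 1, orfX, which RefSeq names mttB, so that class is a single gene here and says nothing of mitochondrial reading frames in general.

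RNA came from whole seedlings and was hybridised to 12 ATH1 arrays, 1-colour oligonucleotide arrays read with biotin-labelled cRNA, in 4 groups of 3. The groups were acn1-2 with 100 mM sucrose, Col-7 with 100 mM sucrose, acn1-2 untreated and Col-7 untreated. Per the labels, acn1-2 (ACN1-2 there) carries a T-DNA insertion in AT3G16910, the ACN1 gene for a peroxisomal acetyl-CoA synthetase, in the Col-7 ecotype, and Col-7 carries none. All groups grew under continual light at 20 °C on MS salts agar at pH 5.7, after 4 days of dark stratification at 4 °C, and growth stage 0.70 is given for every sample. The labels name 1 insertion line and speak of 3 pools of 1000 seedlings, with no word on whether the replicates were separate cultures, so p-values measure the spread between these arrays, which may be technical. The annotation used here names no probe set for AT3G16910, so the gene carrying the insertion was not analysed here. From the series title, the question was how organic acid and carbohydrate signals to gene expression are linked.

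Plant mitochondria keep a small genome that codes for core subunits of the respiratory chain, while most subunits of the same complexes are coded in the nucleus and imported. The nad genes code for subunits of complex I, which takes electrons from NADH. The cob gene codes for cytochrome b of complex III, and the cox genes for subunits of complex IV, cytochrome c oxidase. Arabidopsis mitochondria also carry ccm genes, for the machinery that joins haem to c-type cytochromes, and mttB, for a membrane protein related to the TatC subunit of a protein translocase. Stable mitochondrial mRNAs of plants mostly lack a poly(A) tail, and a tail marks them for decay. Here cDNA was primed with oligo(dT), per the labels' protocol, and the part of that step in the levels below was not tested.

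Most of the 22 probe sets were dim. Values at or under 14.4, the pooled 25th percentile of all values, were treated as a floor, and a probe set was tested where its mean over the 12 arrays reached 29.1. Only 6 of the 22 were tested: nad4, cox1, ccb206, ccb382, ccb452 and orfX. The other 16 had means between 3.18 and 27.3, and 123 of their 192 values lay at or under the floor. Just inside the filter stood ccb452 at a mean of 33.9, and just outside it stood a nad1 probe set at 27.3. No order is read between levels of different probe sets, since probes differ in how brightly they bind.

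Complex I had 15 probe sets for 8 genes, and 1 of them, for nad4, a subunit of the membrane arm, was tested. The 7 probe sets of nad1, a membrane arm subunit whose mRNA is joined from separately transcribed pieces by trans-splicing, had means of 27.3, 26.8, 21.1, 17.8, 7.30, 6.98 and 6.78, and no source says which piece of the gene each of them covers. The 2 probe sets of nad5, also trans-spliced, had means of 17.3 and 3.39. The nad6 probe set averaged 19.2. The remaining complex I genes lay under the floor on average: nad4L at 9.90, nad9 at 9.57, nad7 at 9.22 and the trans-spliced nad2 at 3.18. Thus 14 of 15 complex I probe sets were not tested.

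Complex IV had 2 probe sets: cox1, the catalytic subunit, which was tested, and cox2, which binds cytochrome c and averaged 8.93. Complex III had 0 probe sets under the rule. The cytochrome c maturation class had 4. Its members ccb382 (ccmFN1 in RefSeq), ccb203 (ccmFN2) and ccb452 (ccmFC) code for parts of the haem lyase complex, with CcmFN split over 2 genes in Arabidopsis. The fourth, ccb206 (ccmB), codes for a membrane subunit of an ABC transporter. Of these, ccb382, ccb452 and ccb206 were tested and ccb203, at a mean of 4.76, was not. On all 12 arrays, 6 probe sets lay at or under the floor: nad4L, nad9, nad2, ccb203 and 1 each of nad1 and nad5.

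**Figure D1:**
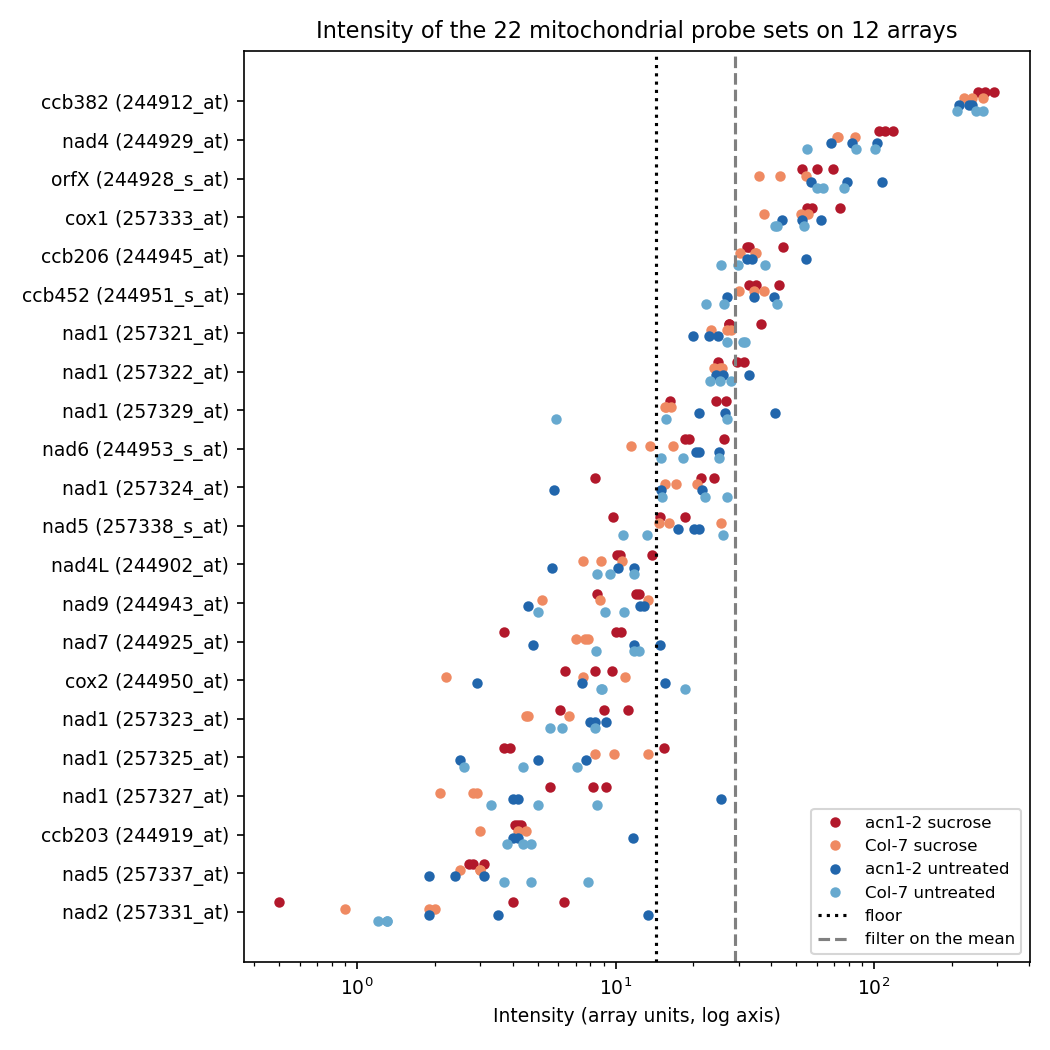
Intensity of each of the 22 mitochondrial probe sets (rows) on every array, on a log axis in array units; colours mark the 4 groups, the dotted line the floor of 14.4 and the dashed line the filter of 29.1 on the mean. Only the top 6 rows have means above the filter, and the values of the lowest rows lie left of the floor.

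The authors had brought the arrays to the same trimmed mean, and medians of intensity ran from 41.0 to 47.2. The arrays acn1-2 untreated 3 and Col-7 sucrose 3 stood apart from their groups. Their values deviated from the group means with SDs of 0.245 and 0.203 (log2), against 0.115 to 0.19 on the other 10. Some results are therefore also given without both. For actin, a control transcript, the 3′ to 5′ signal ratio differed with the medium, at 6.01 ± 0.605 in acn1-2 with sucrose, 6.40 ± 0.492 in Col-7 with sucrose, 2.31 ± 0.554 in acn1-2 untreated and 2.90 ± 0.563 in Col-7 untreated (SD, n = 3 each). The GAPDH ratio moved the other way, averaging 0.877, 0.851, 1.24 and 1.15 in the same groups. The array with the next largest deviation, acn1-2 untreated 2 at 0.19, had a GAPDH ratio of 0.958, against 1.33 and 1.45 on the other acn1-2 untreated arrays. Its intensity of the green tissue marker PRK was 2208, against 3449 and 3653 on those arrays. Member calls and counts of called genes that turn on acn1-2 untreated 2 are given without it. Of the green tissue markers listed, the annotation named 2 of 10 alone on a probe set, and both were called lower with sucrose in both lines. The summed intensity of these 2, RCA and PRK, ran from 2900.2 to 3025 in acn1-2 with sucrose, from 2374 to 3435 in Col-7 with sucrose, from 4498 to 7850 in acn1-2 untreated and from 5547 to 6269 in Col-7 untreated. Of the root markers listed, 2 of 11 were named alone on a probe set. Their sum ran from 2632 to 2999.6 in acn1-2 with sucrose and from 2504 to 2662 in Col-7 with sucrose. It ran from 2109 to 3614 in acn1-2 untreated and from 2769 to 3100.4 in Col-7 untreated. None of these 4 marker probe sets read 0 on any array. The part of transcript integrity and tissue makeup in the results below was not tested. In whole seedlings, fewer cells or mitochondria and less RNA per cell cannot be told apart.

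Values on every array follow for the tested members, in the order of replicates 1, 2 and 3. For nad4 the intensities were 110.7, 119.0 and 104.8 in acn1-2 with sucrose, 72.9, 84.2 and 72.2 in Col-7 with sucrose, 82.1, 103.3 and 68.4 in acn1-2 untreated and 100.9, 85.6 and 55.2 in Col-7 untreated. All 3 acn1-2 sucrose arrays were above every other array. For cox1 they were 57.5, 55.1 and 74.0 in acn1-2 with sucrose, 37.7, 52.1 and 55.5 in Col-7 with sucrose, 44.0, 52.8 and 62.6 in acn1-2 untreated and 53.5, 42.3 and 41.5 in Col-7 untreated. The 4 groups of cox1 overlapped, apart from acn1-2 with sucrose, whose lowest array was above all 3 arrays of Col-7 untreated.

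The probe set of the maturation gene ccb382 had 291.9, 252.6 and 269.2 in acn1-2 with sucrose, 223.7, 264.4 and 240.2 in Col-7 with sucrose, 214.1, 234.0 and 239.4 in acn1-2 untreated and 264.5, 247.5 and 210.2 in Col-7 untreated. Its acn1-2 sucrose arrays were all above its acn1-2 untreated arrays, and the other pairs of groups compared below overlapped. For ccb206 the intensities were 44.5, 32.8 and 32.4 in acn1-2 with sucrose, 35.0, 34.8 and 30.3 in Col-7 with sucrose, 33.7, 32.2 and 54.8 in acn1-2 untreated and 29.7, 25.5 and 37.8 in Col-7 untreated. For ccb452 they were 43.1, 35.0 and 32.8 in acn1-2 with sucrose, 34.3, 37.6 and 30.0 in Col-7 with sucrose, 27.1, 34.3 and 41.0 in acn1-2 untreated and 42.3, 22.5 and 26.4 in Col-7 untreated. Both of these dim probe sets overlapped between all groups compared. The highest ccb206 value came from acn1-2 untreated 3, an array that stood apart.

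For orfX the intensities were 69.7, 52.7 and 60.3 in acn1-2 with sucrose, 43.5, 54.6 and 35.9 in Col-7 with sucrose, 57.0, 78.9 and 107.1 in acn1-2 untreated and 63.5, 76.8 and 60.1 in Col-7 untreated. All Col-7 sucrose arrays lay below all Col-7 untreated arrays. Its highest and its lowest value came from the arrays that stood apart, acn1-2 untreated 3 and Col-7 sucrose 3. The orfX, ccb452, nad6 and 1 of the nad5 probe sets carry the suffix that the array's makers give to probes shared by more than a single transcript. A large copy of the mitochondrial genome lies on nuclear chromosome 2, so RNA of a nuclear copy and of the mitochondrial gene cannot be told apart in such probe sets. No probe sequences were available, so whether probe sets without the suffix also match that copy was not tested.

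**Figure D2:**
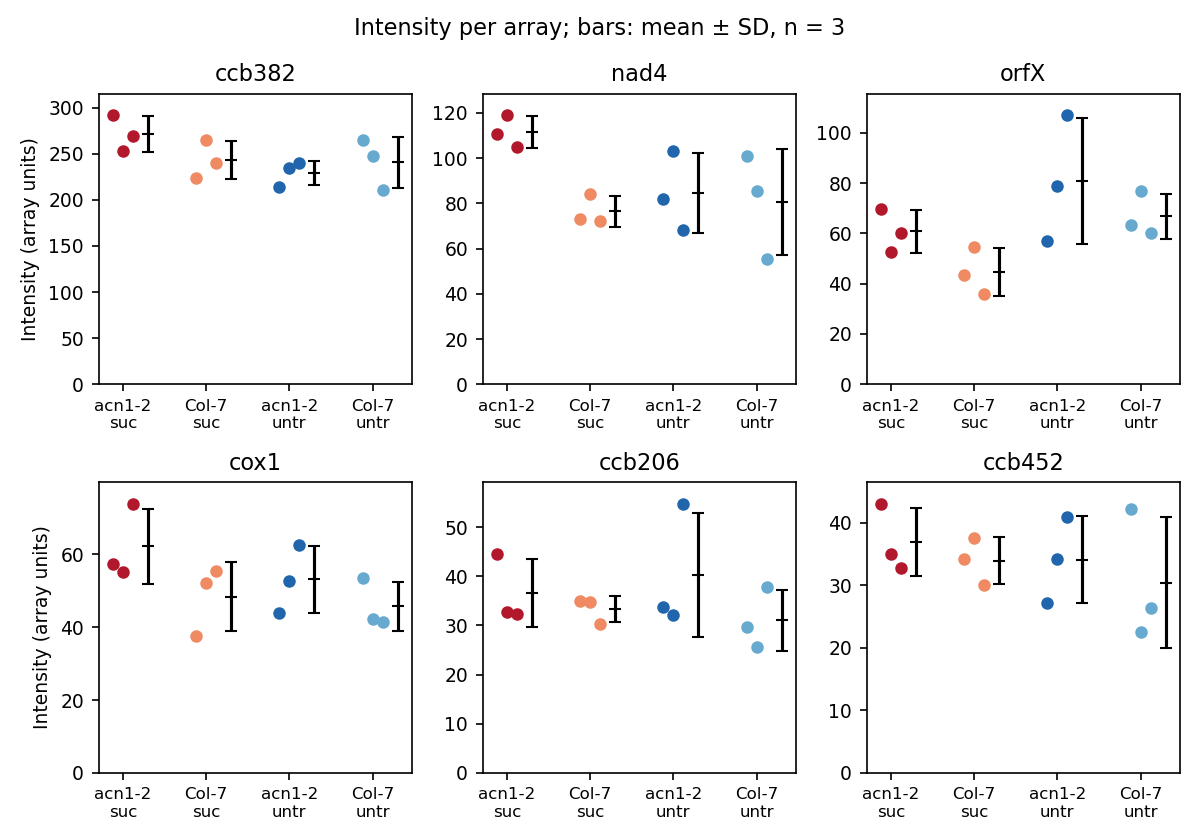
Intensity in array units of the 6 tested members, 1 point per array in each of the 4 groups, with the mean ± SD (n = 3) as a bar beside the points; each panel has its own axis from 0. The acn1-2 sucrose arrays of nad4 lie at 104.8 or above, and the Col-7 sucrose arrays of orfX at 54.6 or below.

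Sucrose against untreated in Col-7 asked which RNAs follow the sugar in the line without the insertion. The orfX RNA fell in Col-7 with sucrose, and none of the 5 respiratory chain and maturation members passed the test. It averaged 44.7 ± 9.40 in Col-7 with sucrose and 66.8 ± 8.83 in Col-7 untreated (SD, n = 3 each), a change of -0.59 on the log2 scale (SE 0.21, 95% interval -1.05 to -0.13, limma adjusted p = 0.0329) or a ratio of 0.663. The 5 other members had changes between -0.04 and 0.21 with a median of 0.07, beside a median of 0.00 over all tested probe sets. Of these, nad4 stood at -0.04 (SE 0.20), cox1 at 0.07 (SE 0.18), ccb382 at 0.02 (SE 0.11), ccb206 at 0.12 (SE 0.20) and ccb452 at 0.21 (SE 0.21), with adjusted p from 0.444 to 0.922.

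The background of this comparison is broad: 50.2% of the 13764 tested probe sets were called, 25.9% higher and 24.3% lower. The 1 of 6 mitochondrial members called lower is thus no more than the background share. Groups that did not overlap, with sucrose lower, were found for 1 of 6 members, orfX, and for 29.7% of all tested probe sets. The interval of ccb382, the most precise member, ran from -0.23 to 0.26, so it leaves room for a change of up to 1.20-fold upward, while that of ccb452 reached 0.67. The orfX call was lost without both arrays that stood apart (change -0.45, adjusted p = 0.0574) and without Col-7 sucrose 1 (0.0718) or 3 (0.139) or Col-7 untreated 1 (0.0573) or 2 (0.117). It was also lost when every probe set was tested (0.107).

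In acn1-2, 0 of 6 mitochondrial members passed the test of sucrose against untreated (limma), beside 56.9% of all tested probe sets. At an unadjusted p under 0.05 the count was also 0 of 6, beside 61.5%. The complex I subunit gene nad4 averaged 111.5 ± 7.13 in acn1-2 with sucrose and 84.6 ± 17.6 in acn1-2 untreated (SD, n = 3 each), a log2 change of 0.42 (SE 0.20, 95% interval -0.01 to 0.84, adjusted p = 0.0879). The maturation gene ccb382 averaged 271 ± 19.7 in acn1-2 with sucrose and 229 ± 13.3 in acn1-2 untreated, a change of 0.24 (SE 0.11, 95% interval -0.0016 to 0.49, adjusted p = 0.0832). In both, all 3 sucrose arrays were above all 3 untreated arrays, which held for 30.3% of all tested probe sets.

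The remaining members were no nearer to the threshold. In acn1-2, cox1 changed by an estimate of 0.23 (SE 0.18, adjusted p = 0.291), ccb452 by 0.13 (SE 0.21, adjusted p = 0.639) and ccb206 by -0.11 (SE 0.20, adjusted p = 0.667). For orfX the mean was 60.9 ± 8.52 in acn1-2 with sucrose and 81.0 ± 25.1 in acn1-2 untreated, a change of -0.37 (SE 0.21, 95% interval -0.83 to 0.09, adjusted p = 0.15), and the groups overlapped. The median of the 5 respiratory chain and maturation members was 0.23, beside -0.04 over all tested probe sets. Some settings moved members across the threshold: nad4 was called with array weights (0.39, adjusted p = 0.0481), without Col-7 untreated 3 (0.0276) and without acn1-2 untreated 2 (0.57, 0.0345), ccb382 with array weights (0.28, 0.0378), and orfX without acn1-2 untreated 1 (-0.60, 0.0224).

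The comparison of the lines on sucrose asked how acn1-2 differs from Col-7 when sugar is supplied. With 1 insertion line, the insertion and any other difference between the lines cannot be told apart. None of the 6 members passed the test, beside 0.211% of all tested probe sets, and limma's adjusted p ran from 0.808 to 1. At an unadjusted p under 0.05 there were 2 of 6, nad4 and orfX, beside 4.78%. All 6 estimates were above 0, as were 50.2% of those of all tested probe sets, and the member median was 0.26 beside 0.00. Of the 6, ccb206 did not hold this direction and ran from -0.03 to 0.20 when single arrays were left out. Other organelle-related probe sets leaned the same way, with 0 called. Of 68 plastid-encoded estimates, 61 were above 0 (median 0.21, and 0.08 without both arrays that stood apart). So were 8 of 8 tested probe sets of nuclear AT2G076 and AT2G077 loci (median 0.36) and 3 of 3 other mitochondrial probe sets (median 0.39), both lists chosen after their values were seen.

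The nad4 RNA averaged 111.5 ± 7.13 in acn1-2 with sucrose and 76.4 ± 6.74 in Col-7 with sucrose (SD, n = 3 each), a change of 0.55 (SE 0.20, 95% interval 0.12 to 0.97, unadjusted p = 0.0161, adjusted p = 0.808) or a ratio of 1.46. Its groups did not overlap, with acn1-2 higher, in common with 7.11% of all tested probe sets. The orfX RNA averaged 60.9 ± 8.52 in acn1-2 with sucrose and 44.7 ± 9.40 in Col-7 with sucrose, a change of 0.46 (SE 0.21, unadjusted p = 0.05, adjusted p = 1), with overlap between the groups. The catalytic oxidase subunit gene cox1 averaged 62.2 ± 10.3 in acn1-2 with sucrose and 48.4 ± 9.45 in Col-7 with sucrose, a change of 0.37 (SE 0.18, adjusted p = 1). For ccb382, ccb206 and ccb452 the changes were 0.16, 0.12 and 0.12, each smaller than 2 of its standard errors.

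In untreated seedlings, 0 of 6 members passed the test between acn1-2 and Col-7 (limma), beside 0.545% of all tested probe sets. At an unadjusted p under 0.05 the count was 0 of 6, beside 14.4%. Groups overlapped for all 6 members, while 9.95% of all tested probe sets had every acn1-2 array above every Col-7 array and 7.98% every acn1-2 array below. The largest estimate was that of the transporter subunit gene ccb206, at 40.2 ± 12.6 in acn1-2 untreated and 31.0 ± 6.25 in Col-7 untreated (SD, n = 3 each), a change of 0.35 (SE 0.20, 95% interval -0.09 to 0.79, adjusted p = 0.44). Without acn1-2 untreated 3, an array that stood apart, it was 0.11. Of the rest, orfX had a change of 0.24 (SE 0.21, adjusted p = 0.623), cox1 of 0.21 (SE 0.18, adjusted p = 0.606), ccb452 of 0.20 (SE 0.21, adjusted p = 0.688), nad4 of 0.09 (SE 0.20, adjusted p = 0.854) and ccb382 of -0.07 (SE 0.11, adjusted p = 0.815). The median of the 5 respiratory chain and maturation members was 0.20, beside 0.03 over all tested probe sets.

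**Figure D3:**
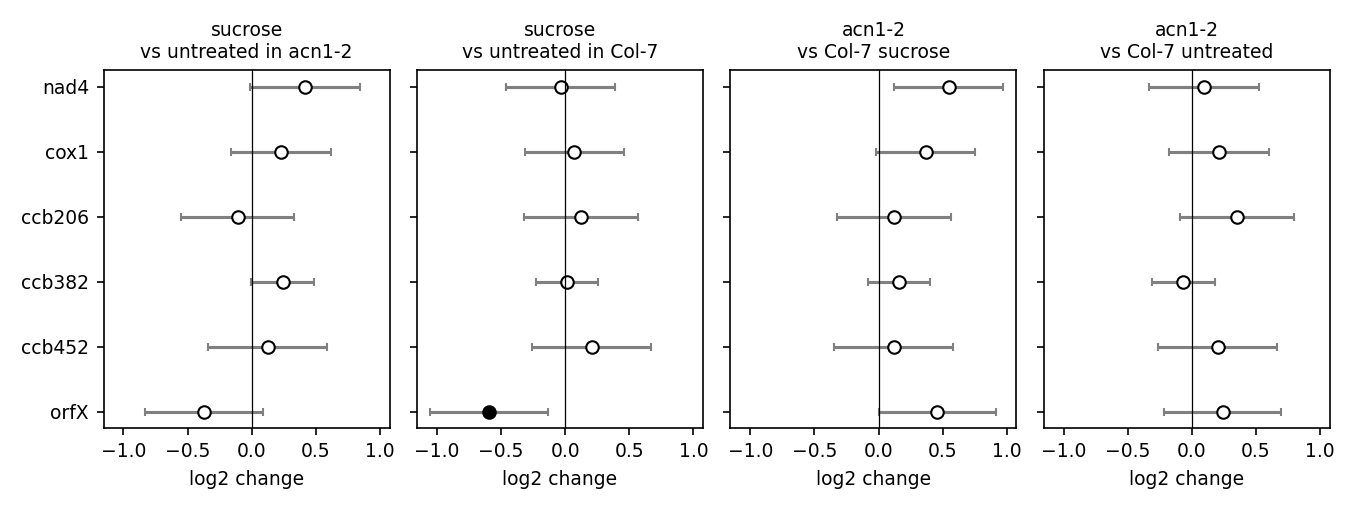
Log2 change of the 6 tested members (rows) in 4 comparisons (panels), with 95% intervals from limma; a filled point marks an adjusted p under 0.05. Only orfX under sucrose in Col-7, at -0.59, is filled, and the nad4 interval between the lines on sucrose, 0.12 to 0.97, lies above 0 without being called.

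Whether sucrose acted differently in the lines was tested as the interaction, the sucrose change in acn1-2 minus that in Col-7. It was called for 0 of 6 members, beside 0.0581% of all tested probe sets, and 0 of 6 reached an unadjusted p under 0.05, beside 10% (limma). The estimates were 0.45 for nad4 (SE 0.28, adjusted p = 0.594), 0.23 for ccb382 (SE 0.16, adjusted p = 0.644), 0.22 for orfX (SE 0.30, adjusted p = 0.834), 0.16 for cox1 (SE 0.25, adjusted p = 0.862), -0.08 for ccb452 (SE 0.30, adjusted p = 0.947) and -0.23 for ccb206 (SE 0.29, adjusted p = 0.815). The call of orfX in Col-7 alone is therefore not shown to differ from acn1-2. The interval of the nad4 difference, -0.15 to 1.06, includes 0 and also a change larger than any seen in a member.

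Under sucrose the open reading frame stood at -0.37 in acn1-2 and -0.59 in Col-7, and the median of the respiratory chain and maturation members at 0.23 in acn1-2 and 0.07 in Col-7. Within that class, ccb206 in acn1-2 and nad4 in Col-7 also had estimates below 0. These values moved with single arrays: in acn1-2 the orfX change was -0.60 without acn1-2 untreated 1 and -0.15 without acn1-2 untreated 3, and the class median ran from 0.10 (without acn1-2 untreated 1) to 0.29. In Col-7 the class median ran from 0.006 (without Col-7 untreated 3) to 0.15 (without Col-7 untreated 1). With 1 gene in the first class, and 1 call in Col-7 that depends on single arrays, the difference between the classes was not tested. The 4 comparisons share arrays in pairs, so their values are not independent of each other.

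Nuclear genes for respiratory chain, cytochrome c and ATP synthase proteins, set beside the members, were mostly called higher with sucrose. Of 41 such nuclear loci listed, 22 were named alone on a probe set, and 22 of their 23 probe sets were tested. Of these 22, 9 were for complex I and 2 for complex IV, the complexes with a tested member. With sucrose in acn1-2, 22 of 22 rose, with a median log2 change of 0.65 (0.30 to 1.38), beside 27.4% of all tested probe sets called higher. Without acn1-2 untreated 2, 20 of 22 were called higher. With sucrose in Col-7, 21 of 22 were called higher, with a median of 0.56 (0.18 to 1.06), beside 25.9%. The exception was FRO1, a complex I subunit gene, at 0.18 (limma adjusted p = 0.144). Without both arrays that stood apart 18 of 22 were called in Col-7, and without Col-7 sucrose 3 alone 16 were. Between the lines 0 of 22 were called in either medium (limma).

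The nuclear genes with the largest changes include CYTC-2, for cytochrome c itself, the protein that the maturation genes serve. It averaged 411 in acn1-2 with sucrose and 173 in acn1-2 untreated (1.25, SE 0.12, adjusted p = 3.26e-06), and 386 in Col-7 with sucrose and 192 in Col-7 untreated (0.99, SE 0.12, adjusted p = 2.76e-05). The complex IV subunit gene AT1G80230 rose by 1.09 in acn1-2 (adjusted p = 2.83e-05) and by 1.06 in Col-7 (adjusted p = 4.67e-05). The complex I accessory gene AT5G18800 rose by 1.38 in acn1-2 (adjusted p = 8.54e-07) and by 0.81 in Col-7 (adjusted p = 8.47e-05). The complex III core protein gene AT1G51980, a subunit of the processing peptidase, rose by 0.94 in acn1-2 (adjusted p = 1.27e-05) and by 0.86 in Col-7 (adjusted p = 3.48e-05). These changes exceed the size of every member estimate under sucrose in the same line. Their standard errors were 0.11 to 0.14, against 0.11 to 0.21 for the members, and the difference between the nuclear genes and the members was not tested.

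Most probe sets of plastid-encoded genes, the other organelle's own, were called lower with sucrose. Of 68 tested probe sets with plastid locus tags, 43 fell and 1 rose in acn1-2, with a median of -0.57, beside 29.6% of all tested probe sets called lower. The count that fell was 54 without acn1-2 untreated 2, 34 without acn1-2 untreated 1 and 36 without both arrays that stood apart. In Col-7, 46 fell and 0 rose, with a median of -0.69, beside 24.3%, and without both arrays that stood apart 39 fell. The green tissue marker PRK, of the Calvin cycle, fell in the same comparisons, by 1.49 in acn1-2 (adjusted p = 5.74e-05) and by 1.26 in Col-7 (adjusted p = 0.000255). RCA, for Rubisco activase, fell by 0.84 in acn1-2 (adjusted p = 0.00224) and by 0.74 in Col-7 (adjusted p = 0.00568). The root hair gene EXPA7 rose by 0.35 in acn1-2 (adjusted p = 0.0431) and by 0.45 in Col-7 (adjusted p = 0.0161). PYK10, a root beta-glucosidase gene, had changes of -0.13 in acn1-2 (adjusted p = 0.556) and -0.24 in Col-7 (adjusted p = 0.279). Its intensities in acn1-2 untreated were 3434, 1992 and 3484 on replicates 1, 2 and 3, against 2464, 2600 and 2853 in acn1-2 with sucrose. Those of RCA in acn1-2 untreated were 3830.5, 2289.6 and 4197.5. The changes of PYK10 and RCA without acn1-2 untreated 2 are not given here.

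**Figure D4:**
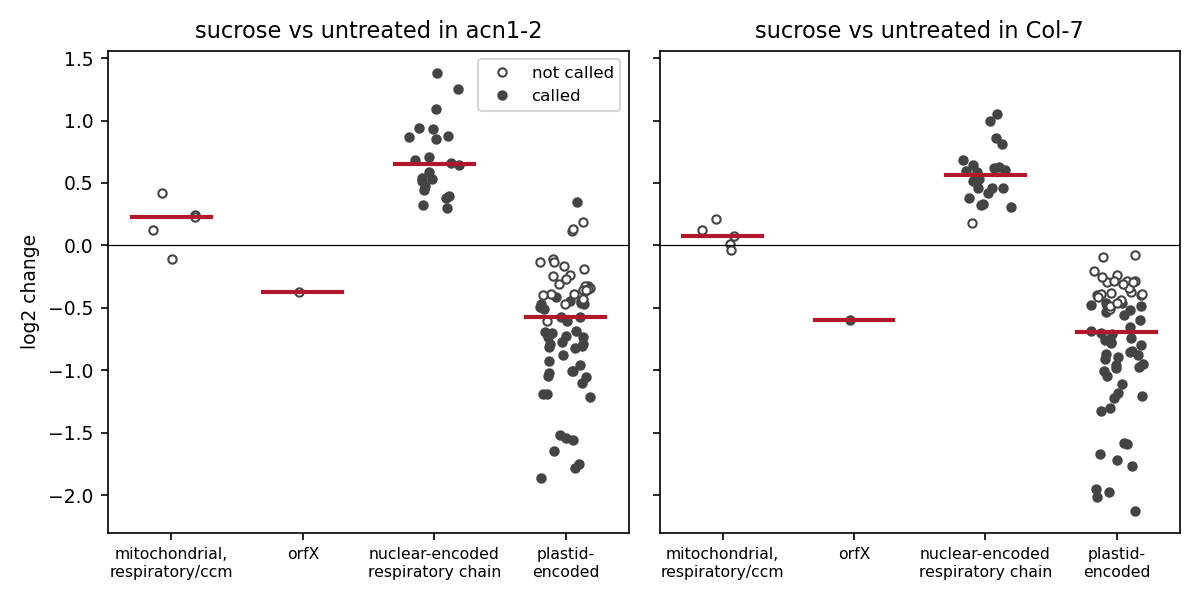
Log2 change with sucrose in acn1-2 (left) and Col-7 (right) for the 5 tested mitochondrial respiratory chain and cytochrome c maturation members, orfX, 22 nuclear-encoded respiratory chain, cytochrome c and ATP synthase probe sets and 68 plastid-encoded ones. Filled points were called and red lines are medians. The nuclear genes lie above 0 in both lines (medians 0.65 and 0.56) and the plastid genes mostly below it (-0.57 and -0.69). The 5 respiratory chain and maturation members overlap with both in acn1-2, but only with the nuclear genes in Col-7. In both lines orfX lies within the range of the plastid genes.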

How the data were processed

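Whole-seedling RNA was measured on 12 ATH1 arrays. The deposited table holds a linear intensity per probe set and array for 22810 probe sets, scaled by the authors so that the 2% trimmed mean of each array was about 100.0, as the values show; which software summarised the probes is not stated in the labels or the file. Groups and replicate numbers came from the labels. The 64 control probe sets were left out, values were raised to a floor of 14.4, their pooled 25th percentile, and log2 taken. Probe sets with a mean at or above the pooled 40th percentile (29.1) were tested, 13764 in all, of whose values 0.359% were floored.

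A model of the 4 group means was fitted with limma 3.58.1 in R 4.3.3 (lmFit and eBayes, 8 residual and 4.87 prior degrees of freedom), two-sided, with Benjamini-Hochberg adjustment over all tested probe sets, and calls needed an adjusted p below 0.05. The median SE was 0.133 log2 units, and the 3 arrays a group limit the precision. Class medians are descriptions with no test. The fit was tested on simulated data. Figures used matplotlib 3.10.9.

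Members were named from the platform annotation and matched by symbol to the RefSeq table of assembly TAIR10.1. Their annotated gene identifiers matched 0 entries there. Of the probe sets, 13513 named 1 gene, 503 several and 8730 none. Another 4 probe sets name a member gene with a second gene and were left out of the members. The rule for named genes gave every tested member with its values, and of the nuclear and marker lists the called genes with the largest changes; FRO1, EXPA7, RCA and PYK10 were named in addition, after their values were seen. Plastid-encoded genes were only counted. Members, lists and alternatives were chosen with earlier results of these data known.

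Other settings tried were a filter at 62.3 (pooled 60th percentile) or none, a pseudocount of 16 or nothing in place of the floor, quantile normalization, moderation with trend and robust estimates, array weights, only the groups compared, the replicate number as a block, the scanner background as a covariate, and leaving out arrays. The replicate numbers were not taken to pair the arrays, since 3 of 18 same-numbered pairs correlated above 0.1 (-0.095 to 0.139).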

Additional observations from a re-analysis of the deposited data

How the results depend on the processing

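Of 30 member changes (6 members in 5 comparisons), 12 kept their direction and their side of the threshold in all 23 alternatives, 14 reversed in at least 1 and 4 gained or lost a call. The count of called members in Col-7 under sucrose, 1, became 0 with no filter and 0 without both arrays that stood apart, and ran from 0 to 1 without single arrays. In acn1-2 under sucrose it was 0, and became 1 with no filter (a nad1 probe set), 2 with array weights and 1 with the replicate block (nad4, adjusted p = 0.0389), and ran from 0 to 1 without single arrays. The replicate numbers are not shown to pair the arrays, although 8 of 12 arrays correlated best with one of their own number, and the block changed no other member call. The number of all probe sets called between the lines untreated was 75, and became 42 with no filter, 25 with only the groups compared, 41 with the replicate block and 46 with the scanner background, and ran from 28 to 92 without single arrays. Between the lines on sucrose it was 29, and became 164 under array weights, 63 without both arrays that stood apart, 17 with no floor and 10 under the stricter filter, and ran from 21 to 43. For the interaction it was 8, and became 13 with the stricter filter, 18 with trend and robust moderation, 22 with array weights and 13 without both arrays, and ran from 4 to 19.

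All reversals were of estimates that had not been called. With array weights they were orfX between the untreated lines at -0.038, ccb382 at -0.022 and cox1 at -0.043 in Col-7, ccb206 at 0.038 in acn1-2, and the ccb452 interaction at 0.051. Without both arrays they were nad4 at 0.0042 and cox1 at -0.0365 in Col-7, and ccb206 at 0.13 in acn1-2. Without single arrays, between the untreated lines ccb382 ran from -0.16 to 0.0051 and nad4 from -0.16 to 0.28. Between the lines on sucrose ccb206 ran from -0.0304 to 0.20. In Col-7, nad4 ran from -0.29 to 0.15, ccb206 from -0.0092 to 0.27, ccb382 from -0.0792 to 0.0866 and cox1 from -0.0365 to 0.24. In acn1-2, ccb452 ran from -0.0307 to 0.27 and ccb206 from -0.26 to 0.13. For the interaction, ccb452 ran from -0.35 to 0.11, orfX from -0.0096 to 0.45, ccb206 from -0.38 to 0.0125 and cox1 from -0.0128 to 0.28. The causes of these shifts were not tested. Signal limits the rest: 16 of 22 members lay under the filter.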

Other observations

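Mitochondrial probe sets outside the rule, chosen after their values were seen, gave some calls. Of 7 such probe sets 3 were tested, and 2 were called higher with sucrose in acn1-2 and 1 in Col-7, beside 27.4% and 25.9% of all tested probe sets. A probe set that the annotation gives to both rps3 and rpl16, mitochondrial ribosomal protein genes, had 185.8, 192.4 and 180.2 in acn1-2 with sucrose and 89.4, 95.4 and 74.0 in acn1-2 untreated (rps3;rpl16 log2 change 1.12, SE 0.19, limma adjusted p = 0.000319). In Col-7 it had 133.7, 145.4 and 122.4 with sucrose and 115.1, 108.3 and 61.7 untreated (0.54, SE 0.19, adjusted p = 0.0323). The value of 61.7 came from Col-7 untreated 3, and the change without that array is not given here. Between the lines on sucrose the change of this probe set was 0.48 (unadjusted p = 0.0279, adjusted p = 0.904), with no overlap. A probe set shared by the nuclear locus AT2G07671 and atp9, an ATP synthase subunit gene, was called higher with sucrose in acn1-2 (AT2G07671;atp9 0.86, SE 0.33, limma adjusted p = 0.0375). It had 70.7, 70.9 and 63.8 in acn1-2 with sucrose and 38.0, 70.4 and 20.0 in acn1-2 untreated, so the groups overlapped. The lowest value came from acn1-2 untreated 3, an array that stood apart, and the change without that array is not given here. In Col-7 the change of this probe set was -0.08 (adjusted p = 0.864).

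The probe set shared by AT2G07687 and cox3, a complex IV subunit gene, had 39.0, 44.6 and 43.9 in acn1-2 untreated and 34.4, 36.1 and 25.3 in Col-7 untreated (0.43, SE 0.14, adjusted p = 0.222). With sucrose it had 43.2, 46.1 and 43.5 in acn1-2 and 34.5, 38.8 and 28.9 in Col-7 (0.39, SE 0.14, adjusted p = 0.829). The acn1-2 arrays lay above the Col-7 arrays without overlap in both media, as in 9.95% of all tested probe sets untreated and 7.11% with sucrose, and neither difference was called. The nad1 probe set just under the filter had 36.6, 27.5 and 27.6 in acn1-2 with sucrose and 23.0, 20.0 and 24.9 in acn1-2 untreated. It was called higher with sucrose in acn1-2 when every probe set was tested (0.43, SE 0.14, limma adjusted p = 0.039), as were 3699 of 22746 probe sets. In Col-7 it had 27.0, 28.0 and 23.4 with sucrose and 31.6, 27.0 and 31.1 untreated (-0.20, adjusted p = 0.36). Between the untreated lines its change was -0.40 (adjusted p = 0.312), and its interaction was 0.62 (SE 0.19, adjusted p = 0.408). The other nad1 probe sets were not called with sucrose in acn1-2 in that fit, with changes from -0.38 to 0.22.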
